A study of Mus musculus with 10 samples.

Results

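The results below concern 10 genes of eicosanoid metabolism: the prostaglandin-degrading enzyme gene Hpgd, 1 further breakdown gene (Ptgr1), 5 genes of prostaglandin synthesis (Ptgs1, Ptgs2, Ptges, Ptges2 and Hpgds) and 3 genes of leukotriene synthesis (Alox5, Alox5ap and Lta4h). They were listed by gene symbol, with earlier results of these data known, and were found through their Ensembl identifiers among the 52550 genes of the deposited table. All 10 had at least 10 counts in total over 10 libraries, so all of them were measured. RNA was sequenced, after removal of ribosomal RNA, from mouse hematopoietic stem and progenitor cells (HSPCs) of wild-type C57BL/6 mice aged 8 to 20 weeks that had been transformed with a retroviral MLL-AF9 fusion oncogene.

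All 10 libraries came from cells that carry MLL-AF9, a retroviral tetR-KRAB repressor and a lentiviral pCW vector that is switched on by doxycycline (DOX). In MLL-AF9-i139 cells the vector encodes miR-139, a microRNA, and in MLL-AF9-ieGFP cells it encodes eGFP. Each of 3 MLL-AF9-i139 clones gave 1 library without DOX and 1 library with DOX at 5 µg/mL, for 48 h in clones 1 and 2 and for 72 h in clone 3, and no time was given for their untreated cultures. MLL-AF9-ieGFP was represented by 1 clone, harvested after 48 h and after 72 h in either condition, so its replicates were culture times and not clones. Treatment time and clone cannot be told apart within MLL-AF9-i139, and the construct and the clone cannot be told apart between the lines. Total counts per library lay between 35133308 and 47089725, 3 counts corresponded to 0.0637 to 0.0854 CPM (counts scaled to the library total), and no pair of libraries of a group agreed within sampling noise (chi-square per degree of freedom 13.5 to 112). Mir139 itself had 0 counts in every library, so the induction could not be checked in these counts. Marker genes were checked against the label: Hoxa9 (84.9 to 141 CPM), Meis1, Kit and Fcgr3 were detected in all 10 libraries, whereas Cd3e of lymphocytes stayed at or below 0.029 CPM. Itgam stayed at or below 0.0627 CPM, and 99.1% of its exon bases lie under another annotated gene.

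Eicosanoids are signaling lipids made from arachidonic acid. Cyclooxygenases (Ptgs1, Ptgs2) convert it to an unstable intermediate from which terminal synthases make prostaglandins, among them prostaglandin E synthases (Ptges, Ptges2) and the hematopoietic prostaglandin D synthase (Hpgds). The dehydrogenase encoded by Hpgd starts the inactivation of prostaglandins by oxidation, and the reductase Ptgr1 acts on the product. In a separate branch used mainly by myeloid cells, 5-lipoxygenase (Alox5) and its membrane partner Alox5ap make leukotriene A4, which Lta4h turns into the chemoattractant leukotriene B4.

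The study cloned a predicted miR-139 motif from the 3′ UTR of Hpgd into a luciferase reporter, so the microRNA and this stretch are shown first. The mature strands of miR-139 (RefSeq, GRCm38, chromosome 7, plus strand) are printed with their seed, bases 2 to 8, in capitals.
miR-139-5p: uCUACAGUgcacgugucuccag
miR-139-3p: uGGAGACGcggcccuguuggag
They lie at chr7:101475382-101475403 and chr7:101475418-101475439, and their seeds differ. The letters searched in the sense strand of the longest annotated 3′ UTR were ACTGTAG or CTGTAGA for miR-139-5p and CGTCTCC or GTCTCCA for miR-139-3p, where both letter sets of a microRNA overlap and a hit by both was counted once. At least 1 match was held by 19.5% of 21037 annotated 3′ UTRs for miR-139-5p and by 14.2% for miR-139-3p. Of the 10 genes, 4 held a miR-139-5p match (Ptgr1, Ptges, Hpgds and Alox5ap) and 0 held a miR-139-3p match.

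The 3′ UTR of Hpgd (838 bases) held no match for either strand, which says only that these letters are not in this window, and among 3′ UTRs of 80 to 125% of its length 12.1% and 9.06% held one for miR-139-5p and miR-139-3p. The reporter insert of the study overlapped this 3′ UTR over 54 bases. A run of 30 of these bases, at chr8:56320514-56320543 in exon 7 of 7 on the plus strand, are shown with the 3 bases that differ between the inserts in capitals.
Hpgd wild-type duplex: gtcatcttaaaggAGAtacttgaattgtta
Hpgd mutated duplex: gtcatcttaaaggCTCtacttgaattgtta
Neither insert held any of the 4 letter sets. From its luciferase assays the study reported Hpgd as a direct target of miR-139. The matches in Ptges and Alox5ap are shown because these genes were higher with DOX.
Ptges 3′ UTR: agaaaacaaaaACTGTAGaatggggcccc
Alox5ap 3′ UTR: tcctcttcaagCTGTAGAtgctgtcaatc
The Ptges stretch (chr2:30891104-30891132, exon 3 of 3, minus strand) has an a after its capitals that makes both letter sets match, and 42% of 3′ UTRs of like length held a match. The Alox5ap stretch (chr5:149287809-149287837, exon 5 of 5, plus strand) is the single match in 419 bases, and 4% of 3′ UTRs of like length held one. The capitals mark letters and not a tested site. Matches in Ptgr1 (1 of CTGTAGA) and in Hpgds (2 of ACTGTAG and 1 of CTGTAGA) are not shown. Of 3′ UTRs of like length, 17.7% for Ptgr1 and 36.9% for Hpgds held a miR-139-5p match.

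With DOX, Hpgd was lower in all 3 MLL-AF9-i139 clones, while Ptgs1, Ptges and Alox5ap were higher in all 3. These 4 genes had an adjusted p under 0.05 when each clone was compared with itself (the clone as a block), and 0 of the 10 genes did in the fit without the block, where 6 had an unadjusted p under 0.05, as did 20.6% of all genes tested. Both fits used the quasi-likelihood test of edgeR with Benjamini-Hochberg adjustment over all genes tested. Without the block 0.0624% of 19223 genes passed, 3 of 10 genes here were higher with the block, where 7.05% of all genes were, and 1 of 10 was lower, where 5.33% of all genes were. In bulk RNA, fewer cells of a type and less RNA per cell cannot be told apart.

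**Figure D1:**
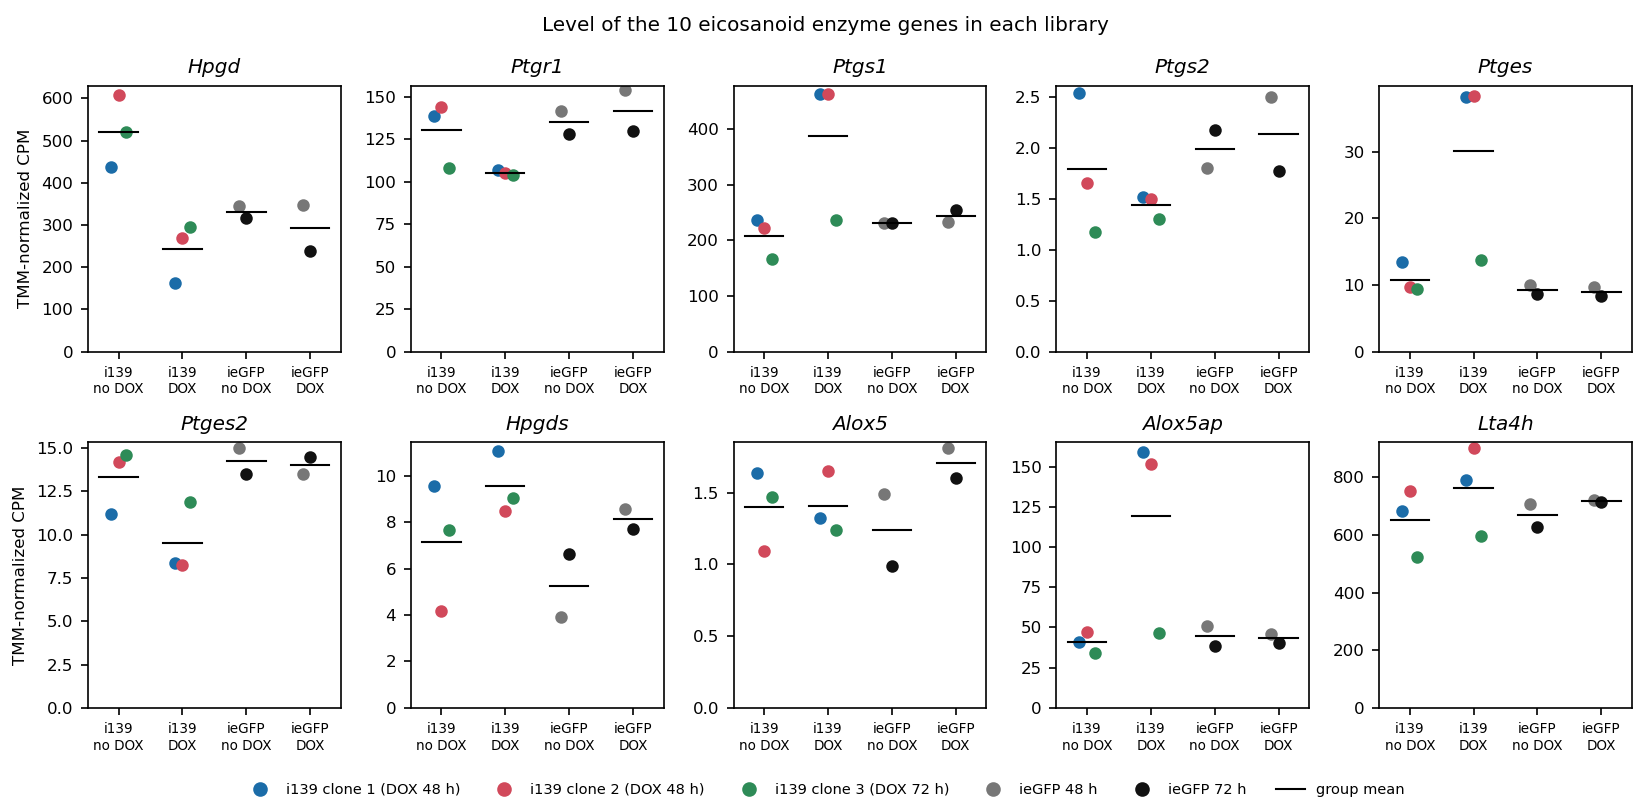
TMM-normalized CPM (vertical axes from 0, a scale per gene) of the 10 genes in each library, by construct and DOX, with dots for libraries and bars for group means. Hpgd lies at 437 to 607 CPM in untreated MLL-AF9-i139 and at 163 to 295 with DOX, and clone 3 with DOX lies apart from clones 1 and 2 in Ptgs1, Ptges and Alox5ap.

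Hpgd (ENSMUSG00000031613, chr8:56294585-56321043, plus strand) encodes 15-hydroxyprostaglandin dehydrogenase. Its level was 437, 607 and 520 CPM in untreated clones 1, 2 and 3, and 163, 269 and 295 CPM in the same clones with DOX. The highest treated clone lay below the lowest untreated clone. The ratio of treated to untreated was 0.373 in clone 1, 0.444 in clone 2 and 0.567 in clone 3. The fitted log2 fold change was -1.09 (SE, the standard error, 0.22, adjusted p = 0.0955, edgeR). The blocked fit gave -1.13 (SE 0.12, 95% interval -1.40 to -0.85, adjusted p = 0.0109, edgeR). The call differed between these fits, and Hpgd also passed with DESeq2 without a block (adjusted p = 0.000329). In MLL-AF9-ieGFP the level was 345 and 316 CPM without DOX and 348 and 239 CPM with DOX, at 48 h and 72 h. These values overlapped, and the fitted change was -0.17 (95% interval -0.75 to 0.40, adjusted p = 1, edgeR). Over the 4 groups the mean Hpgd level was in the order untreated MLL-AF9-i139, untreated MLL-AF9-ieGFP, DOX-treated MLL-AF9-ieGFP and DOX-treated MLL-AF9-i139. The first did not overlap any other group, whereas each of the other neighbours overlapped.

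Ptgr1 encodes prostaglandin reductase 1, which acts after Hpgd. It was at 139, 144 and 108 CPM in untreated clones 1 to 3 and at 107, 105 and 104 CPM with DOX. The groups did not overlap, but clone 3 was almost level (log2 difference -0.06). The change on the log2 scale was -0.30 (SE 0.12, adjusted p = 0.222, edgeR) without and -0.28 (SE 0.10, adjusted p = 0.0976, edgeR) with the block. In MLL-AF9-ieGFP, Ptgr1 was at 142 and 128 CPM without DOX and 154 and 130 with DOX.

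Among the genes of synthesis, Ptgs1 (ENSMUSG00000047250, chr2:36230426-36252272, plus strand) encodes cyclooxygenase 1. Untreated clones 1 to 3 had 237, 222 and 166 CPM, and DOX-treated clones had 463, 463 and 237 CPM. Each clone was higher than itself without DOX, and clone 3 with DOX only reached the level of untreated clone 1. The change on the log2 scale was 0.91 (SE 0.26, adjusted p = 0.128, edgeR) without and 0.86 (SE 0.12, adjusted p = 0.0198, edgeR) with the block. In MLL-AF9-ieGFP the 4 libraries lay between 231 and 254 CPM.

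Ptges (ENSMUSG00000050737, chr2:30889471-30929863, minus strand) encodes microsomal prostaglandin E synthase 1. Its level was 13.4, 9.67 and 9.33 CPM in untreated clones 1 to 3 and 38.2, 38.4 and 13.8 CPM with DOX. The groups did not overlap, although clone 3 with DOX was only slightly above untreated clone 1. The ratio of treated to untreated was 2.84, 3.96 and 1.48 in clones 1 to 3. The change on the log2 scale was 1.49 (SE 0.37, adjusted p = 0.114, edgeR) without and 1.38 (SE 0.25, adjusted p = 0.0271, edgeR) with the block. MLL-AF9-ieGFP had 9.93 and 8.59 CPM without DOX and 9.64 and 8.38 CPM with DOX, with both times lower by 0.04 on the log2 scale.

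The other synthesis genes did not pass in either fit. Ptges2, a second prostaglandin E synthase, was at 11.2, 14.2 and 14.6 CPM without and 8.35, 8.26 and 11.9 CPM with DOX, lower within each clone but overlapping between groups (adjusted p = 0.226 without and 0.057 with the block, edgeR). Hpgds was at 9.59, 4.17 and 7.68 CPM without and 11.1, 8.49 and 9.07 CPM with DOX. It was higher within each clone and at both MLL-AF9-ieGFP times, where it went from 3.9 to 8.6 CPM at 48 h and from 6.64 to 7.72 CPM at 72 h, and the change did not pass in either line (adjusted p = 0.442 and 1, edgeR). Ptgs2, the inducible cyclooxygenase 2, was low throughout, at 1.17 to 2.54 CPM over the 10 libraries, with lower values with DOX in clones 1 and 2 and a higher value in clone 3. The 95% interval of its change with the block was -0.80 to 0.28 on the log2 scale.

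In the leukotriene branch, Alox5ap (ENSMUSG00000060063, chr5:149264767-149288153, plus strand) encodes the 5-lipoxygenase-activating protein. It was at 41.2, 47.2 and 34 CPM in untreated clones 1 to 3 and at 159, 152 and 46.3 CPM with DOX. Clones 1 and 2 stood far above their untreated cultures (ratio 3.86 and 3.21), whereas clone 3 (ratio 1.36) stayed below untreated clone 2, so the groups overlapped. The change on the log2 scale was 1.56 (SE 0.41, adjusted p = 0.119, edgeR) without and 1.39 (SE 0.27, adjusted p = 0.0289, edgeR) with the block. MLL-AF9-ieGFP had 50.7 and 38.2 CPM without DOX and 46.2 and 40.3 CPM with DOX. Antisense genes cover 28.9% of the Alox5ap exon bases and 3.81% of those of Ptgs1, and the strand setting of the counting is not given. The antisense partners Gm19719 and Gm43621 had 0 counts in all 10 libraries. This leaves their level open if reads shared by overlapping genes were not counted.

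Alox5, the enzyme that Alox5ap serves, was low at 0.986 to 1.81 CPM (34 to 80 counts per library). Its log2 fold change in MLL-AF9-i139 was 0.01 (95% interval -0.57 to 0.60, adjusted p = 0.98, edgeR), so a change of the size seen in Alox5ap lies outside this interval. Lta4h, a leukotriene A4 hydrolase, had the highest counts of the 10 genes. It was at 685, 754 and 522 CPM without and 791, 903 and 598 CPM with DOX, higher by 0.20 to 0.26 on the log2 scale within each clone (adjusted p = 0.496 without and 0.0755 with the block, edgeR), and the groups overlapped.

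**Figure D2:**
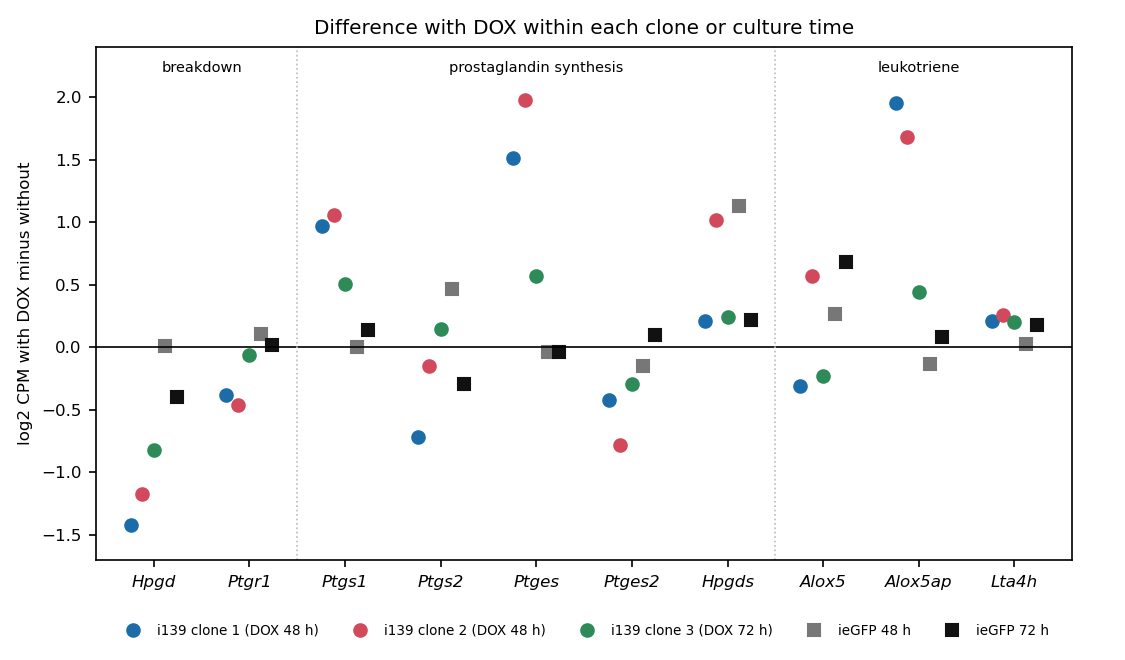
Difference of log2 CPM (prior count 2) between DOX-treated and untreated cultures for each MLL-AF9-i139 clone (circles) and each MLL-AF9-ieGFP culture time (squares). The circles of Hpgd lie at -1.42, -1.17 and -0.82, and those of Ptges and Alox5ap are spread from 0.57 to 1.98 and from 0.44 to 1.95, with clone 3 nearest to 0.

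Over the 10 genes, 2 were higher in every DOX-treated clone than in every untreated clone (Ptgs1 and Ptges), where 12.0% of all tested genes were, and 2 were lower without overlap (Hpgd and Ptgr1), where 12.8% were. The median log2 fold change of the 10 genes was 0.13 without the block, beside 0.01 over all 19223 genes. Of these changes 6 were positive and 4 negative, and the 2 breakdown genes among them (median -0.69) were both negative. The 2 breakdown genes tested outside the 10, Ptgr2 and Zadh2, were both positive (median 0.18 without the block). DESeq2, which the authors used, was fitted here without a block. It gave an adjusted p under 0.05 to the same 4 genes that the block did. Of these, 3 were higher, where 7.51% of all genes with an adjusted p were, and 1 was lower, where 4.58% were. The DESeq2 adjusted p was 0.000329 for Hpgd, 0.0134 for Ptgs1, 0.00108 for Ptges and 0.00161 for Alox5ap. Clone 3 was the clone with the smallest difference in each of these 4 genes. Without clone 3, 5 of 10 genes passed in the fit without the block, where 2122 of 18359 genes were higher and 1859 lower. Without clone 1 or clone 2 none of the 10 did, where 1 of 18014 and 0 of 18319 genes passed. With the block, leaving out any 1 clone left Hpgd, Ptgs1, Ptges and Alox5ap past the threshold, a check chosen after the data were seen. In these blocked fits 324 of 18014, 580 of 18319 and 7974 of 18359 genes passed without clone 1, 2 or 3.

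**Figure D3:**
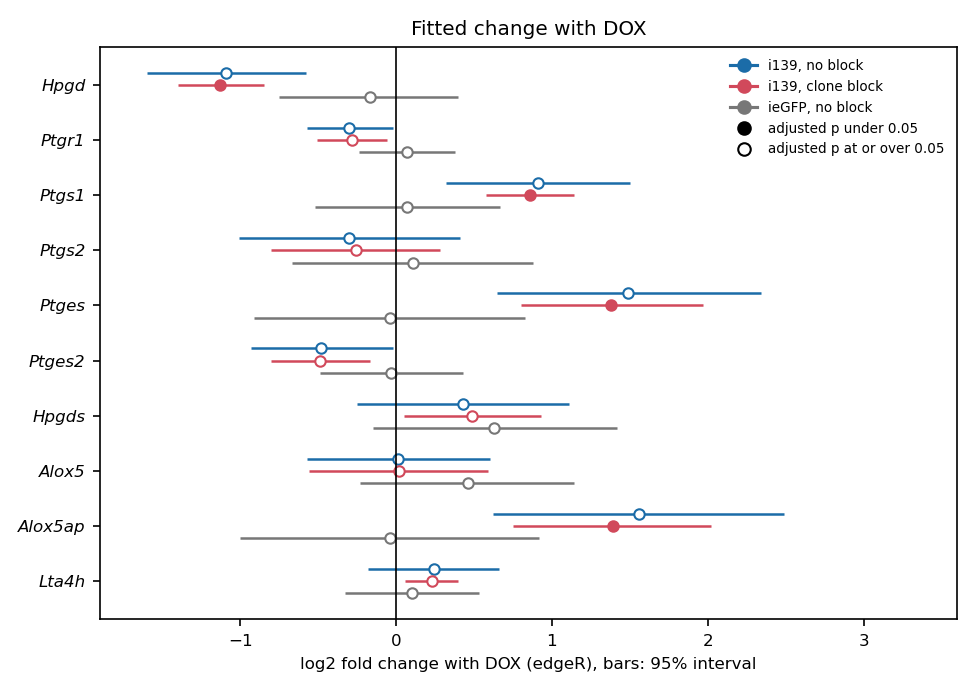
Log2 fold change with DOX from edgeR for the 10 genes, with bars for the 95% interval, in MLL-AF9-i139 without and with the clone as a block and in MLL-AF9-ieGFP, where filled points have an adjusted p under 0.05. Filled points are seen only with the block, for Hpgd (-1.13), Ptgs1 (0.86), Ptges (1.38) and Alox5ap (1.39), and every MLL-AF9-ieGFP interval includes 0.

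In MLL-AF9-ieGFP, which asks what DOX does without miR-139, 0 of the 10 genes passed, and neither did any other gene (0% of 20269 genes, edgeR, with 259 at an unadjusted p under 0.05, and 1 gene with DESeq2). All 10 adjusted p-values were 1, and DESeq2 called 0 of the 10. Without a block none had an unadjusted p under 0.05 (1.28% of all genes did), and with the clone as a block over all 10 libraries, where MLL-AF9-ieGFP is 1 clone and its times are not paired, Hpgds did (0.64, 95% interval 0.06 to 1.21, unadjusted p = 0.0322 and adjusted p = 1, edgeR). The intervals were wide, as for Ptges (-0.91 to 0.83) and Hpgds (-0.15 to 1.42), so that changes within them were not detectable here. Whether the change with DOX differed between the constructs was tested as an interaction over all 10 libraries. None of the 10 genes passed without the block (0.00493% of 20269 genes did), with it (0.178% did) or with DESeq2, and 4 had an unadjusted p under 0.05 without the block (Hpgd, Ptgs1, Ptges and Alox5ap), where 9.17% of all genes did. The difference was largest for Alox5ap at 1.58 (SE 0.56, adjusted p = 0.527, edgeR), for Ptges at 1.52 (SE 0.51, adjusted p = 0.527, edgeR) and for Hpgd at -0.93 (SE 0.34, adjusted p = 0.527, edgeR). With the block the adjusted p was 0.112, 0.108 and 0.1 for these genes and 0.079 for Ptgs1. A change particular to miR-139 was therefore not shown by this test for any of the 10 genes. Without clone 3, the clone treated for 72 h, Ptgs1, Ptges and Alox5ap passed (adjusted p from 0.000216 to 0.0009, edgeR), and Hpgd had an adjusted p = 0.0612. In that setting 1133 of 19753 genes passed as higher and 878 as lower, against 1 and 0 with all clones, so calls rose over all genes.

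Before induction, the lines were compared in their untreated libraries, which the DOX comparisons also use. None of the 10 genes passed with edgeR (0.0444% of 20269 genes did) or with DESeq2, and of the 10 genes Hpgd alone had an unadjusted p under 0.05, as did 2.48% of all genes. Untreated Hpgd was at 437 to 607 CPM in MLL-AF9-i139 and at 316 to 345 CPM in MLL-AF9-ieGFP without overlap, a log2 difference of 0.66 (95% interval 0.12 to 1.19, unadjusted p = 0.0206 and adjusted p = 1, edgeR). For the other 9 genes the difference lay between -0.15 and 0.44. Within MLL-AF9-ieGFP, the 72 h culture had less Hpgd than the 48 h culture, by 0.13 on the log2 scale without and by 0.54 with DOX.

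Levels were compared between genes only per exon length, as CPM per kilobase of exon (RPKM). In untreated MLL-AF9-i139, Hpgd had the highest level at 310 ± 50.5 RPKM (SD, n = 3), above Lta4h at 107 ± 19.5, and their ranges did not overlap. Ptgr1 (56.8 ± 8.56) and Ptgs1 (53.7 ± 9.6) overlapped, and Alox5ap followed at 28.7 ± 4.65. The remaining genes were below 3.5 RPKM in each library, with Ptges and Ptges2 overlapping, Hpgds next, and Ptgs2 and Alox5 overlapping at 0.255 to 0.555 RPKM. With DOX, Hpgd (144 ± 41.6), Lta4h (125 ± 25.2), Ptgs1 (99.8 ± 33.5) and Alox5ap (83.9 ± 44.5) formed a series in which each overlapped the next. The ratio of Ptgs1 to Hpgd, per exon length and within a library, was 0.235, 0.159 and 0.139 in untreated clones 1 to 3 and 1.23, 0.746 and 0.349 with DOX, so that it exceeded 1 only in clone 1. In MLL-AF9-ieGFP it was 0.289 to 0.46 over the 4 libraries.

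**Figure D4:**
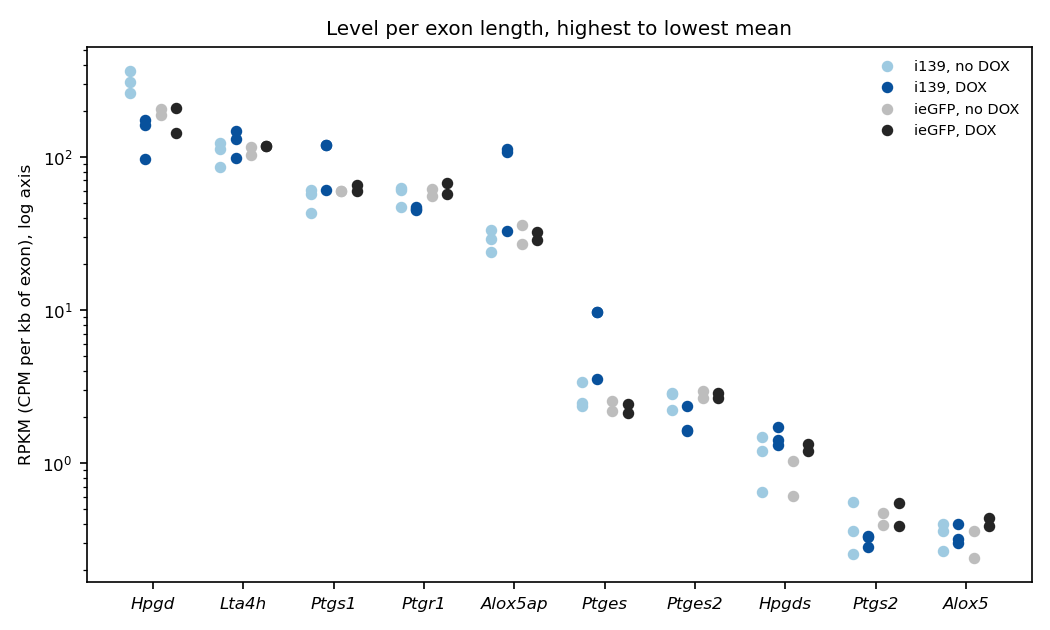
Level per exon length (RPKM, log axis) of the 10 genes in each library, ordered by the mean over 10 libraries, with a dot for each library and a color for each group. Hpgd, Lta4h, Ptgs1, Ptgr1 and Alox5ap lie above 20 RPKM in every library, and Ptges, Ptges2, Hpgds, Ptgs2 and Alox5 lie below 10 RPKM.

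Of 51 other genes of the pathway in 6 lists, 38 were tested in MLL-AF9-i139. Without the block 0 of them passed with edgeR (9 had an unadjusted p under 0.05, beside the 20.6% of all genes), with it 8 were higher and 1 lower, beside the 7.05% and 5.33% of all genes, and DESeq2 called 7 higher. The 6 other genes at 0 counts in all libraries included the prostaglandin E receptors Ptger1 and Ptger2, and 5 of the 6 have all exon bases under other annotated genes, so their level is not known from these counts. The prostaglandin E receptor Ptger4 was at 14 to 18.5 CPM over the 10 libraries, with 50% of its exon bases under antisense genes. Ptger3 was at 0.373 to 0.914 CPM.

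Receptors were represented by 8 tested genes, 2 of them higher with the block. Ltb4r1, the leukotriene B4 receptor, was at 21.4, 24.2 and 20.1 CPM in untreated clones and 61, 83.4 and 37 CPM with DOX, without overlap (log2 fold change 1.41 with the block, SE 0.17, adjusted p = 0.0152, edgeR). It also had the highest level per exon length of its list (mean 24.7 RPKM over 10 libraries). Ptgir, the prostacyclin receptor, was at 15, 23.1 and 27.7 CPM without and 39.5, 60.5 and 42.7 CPM with DOX (1.15, adjusted p = 0.0206 with the block, edgeR). In MLL-AF9-ieGFP, Ltb4r1 lay between 22.9 and 26.5 CPM and Ptgir between 12 and 20.2 CPM.

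Among 12 tested genes of the leukotriene and lipoxygenase list, 4 were higher with the block and the median log2 fold change was 0.60. Cyp4f18, a cytochrome P450 that inactivates leukotriene B4, was at 0.38 to 0.471 CPM without and 10.3, 5.34 and 1.27 CPM with DOX (3.50, adjusted p = 0.0179 with the block, edgeR). The antisense gene Zfp961 covers 47.9% of its exon bases and had 1190 to 1539 counts in untreated and 1089 to 1302 counts in treated MLL-AF9-i139 libraries, and reads of the pair cannot be told apart without the strand setting. The microsomal glutathione transferase genes Mgst1 (1.28, adjusted p = 0.0293) and Mgst2 (0.71, adjusted p = 0.0198) and Cotl1, an actin-binding protein that associates with 5-lipoxygenase (0.75, adjusted p = 0.0287), were also higher with the block (edgeR). Mgst1 had 54.8 and 54 CPM in treated clones 1 and 2 and 21.3 in clone 3, against 15 to 19.4 untreated.

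In the lists of other prostanoid synthesis and of transporters, the changes were smaller. Tbxas1, thromboxane synthase, with 22.4% of its exon bases under antisense genes, was higher by 0.51 (adjusted p = 0.0288 with the block, edgeR) and Abcc4, an exporter of prostaglandins, by 0.46 (adjusted p = 0.0245 with the block, edgeR). Hipk2, which overlaps Tbxas1, had 4806 to 9463 counts in untreated and 5351 to 7654 counts in treated MLL-AF9-i139 libraries. Where they overlap, reads of these 2 genes cannot be told apart without the strand setting. Ptges3, a cytosolic prostaglandin E synthase that is better known as a co-chaperone, was lower, at 214, 209 and 321 CPM with DOX against 317, 343 and 361 CPM without (-0.47, adjusted p = 0.0404 with the block, edgeR), with overlap. Of the 8 tested genes for arachidonate release none passed and their median was -0.04 with the block, with Pla2g4a, the cytosolic phospholipase with the highest level of its list, at 113 to 148 CPM over the 10 libraries. Of 2 other breakdown genes tested none passed, and Zadh2, which also encodes a prostaglandin reductase, was at 53.3 to 74 CPM.

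**Figure D5:**
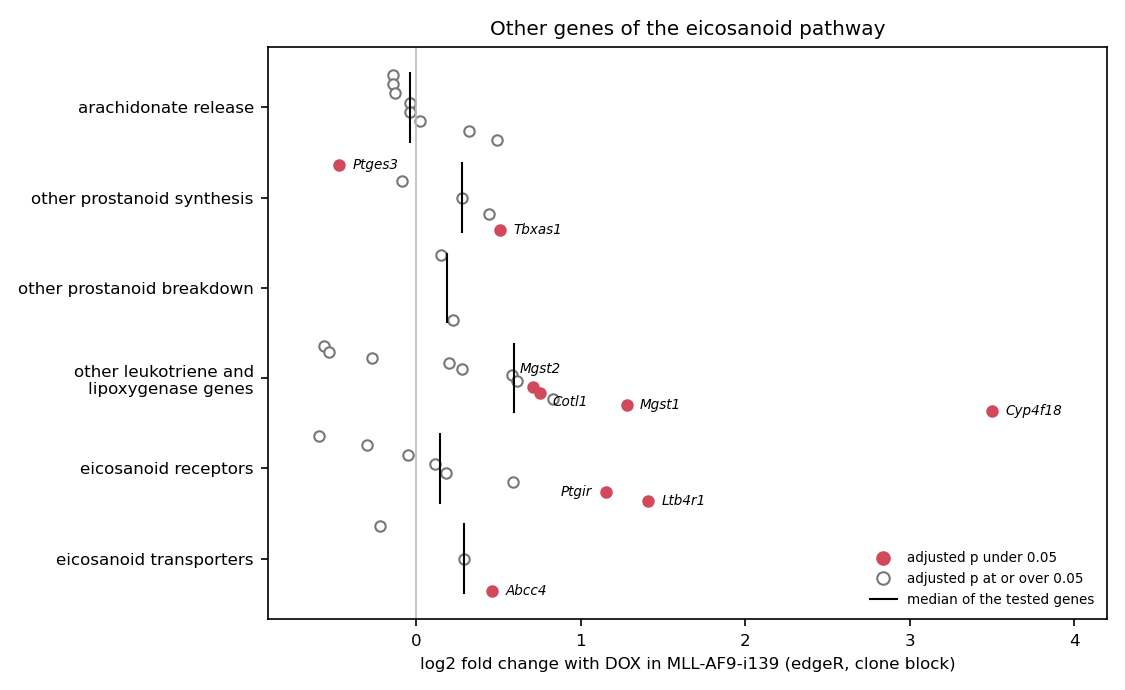
Log2 fold change with DOX in MLL-AF9-i139 (edgeR, clone as a block) of the other pathway genes tested, by list, with filled points for an adjusted p under 0.05 and a line for the median of each list. Cyp4f18 lies at 3.50, and Ptges3 (-0.47) is the single filled point below 0.

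The genes whose level followed that of Hpgd most closely over the 10 libraries, among 10671 genes, were Hoxa10 (Pearson's r 0.949), Pank1 (0.934), Nup35 (0.900), Parp8 (0.895) and Apoo (0.895). Spearman's rho was 0.830 to 0.964, and without the libraries farthest from the Hpgd median (untreated clone 2 and treated clone 1) r was 0.755 to 0.894. The libraries share clones and treatments, so these values describe the pattern only. Among the 10 genes, r with Hpgd was negative for Ptgs1 (-0.748), Alox5ap (-0.639), Ptges (-0.588), Hpgds (-0.528) and Lta4h (-0.407), and positive for Ptges2 (0.589) and Ptgr1 (0.418), while Ptgs2 and Alox5 were too low to be included.

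Some markers of other myeloid stages changed with DOX in the fit with the block, in which 7.05% of all genes were higher and 5.33% lower. With the block, 3 of 11 tested neutrophil markers were higher (Mpo, Ngp and Cxcr2) and 0 lower, and the summed level of the 13 listed genes was 2089 to 3233 CPM in untreated and 2836 to 5067 CPM in treated MLL-AF9-i139. Elane and Prtn3, further granule enzymes, did not pass, and Elane was at 1090, 1315 and 2004 CPM without and 913, 1013 and 2669 CPM with DOX. Mpo, the myeloperoxidase of granules, was higher in treated clone 3 (1669 CPM) than in treated clones 1 and 2 (1306 and 1244 CPM). An antisense gene at 0 counts covers 30.8% of its exon bases, with the same limit as for Alox5ap. Of 7 tested monocyte and macrophage markers 1 was higher (Csf1r) and 0 lower, with sums of 355 to 441 CPM without and 283 to 432 CPM with DOX. Most of these sums was Ly6c2, at 343 to 431 CPM without and 253 to 421 CPM with DOX. With the block, 6 of the 7 log2 fold changes were positive (median 0.68, beside 0.01 over all genes). In the mast cell and basophil list, of which 5 of 10 were at 0 (among them Fcer1a and Cma1), Mcpt8 was higher and Hdc lower, with sums of 15.2 to 22.7 and 19.3 to 23.4 CPM. The eosinophil (at most 4.53 CPM), megakaryocyte (at most 3.78 CPM), lymphocyte (at most 1.77 CPM) and erythroid (at most 0.0418 CPM) sums were low in each group, with Gp9 of the megakaryocyte list higher with the block. In the list for the MLL-AF9 cell, Fcgr3 and Fcgr2b were higher and Hoxa9 and Hoxa10 lower, and its sum was 647 to 671 CPM without and 676 to 893 CPM with DOX. Fcgr3 was at 89.2, 96.9 and 79 CPM without and 312, 269 and 99.2 CPM with DOX, with clone 3 again nearest to its untreated culture. No marker passed with edgeR without the block. DESeq2, also without a block, called Fcgr3, Fcgr2b, Mpo, Ngp, Cxcr2, Csf1r, Cd68 and Mcpt8 higher and no marker lower. Of all genes with an adjusted p, it called 7.51% higher and 4.58% lower. The part of these markers in the changes of Hpgd, Ptgs1, Ptges and Alox5ap was not tested.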

How the data were processed

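Total RNA depleted of ribosomal RNA was sequenced in 10 libraries. Per the labels and the methods of the study, the authors checked reads with FastQC 0.11.8, mapped them to GRCm38 with STAR 2.5.3e, assigned them to GENCODE genes with featureCounts 1.6.0 and deposited the counts without normalization. The strand setting of the counting is not given in the sources used here. The 2 deposited tables held the same counts for the 10 libraries (0 differing values), and 14 columns of other samples were not used. The column names carry other clone numbers than the sample titles. The numbers of the titles are used here, and the treatment times given by clone number were read as following the titles.

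The 10 members and all gene lists were chosen with earlier results of these data known. Counts were normalized with TMM and tested with the quasi-likelihood test of edgeR 4.0.16 (R 4.3.3, two-sided, Benjamini-Hochberg adjustment over all genes with at least 10 counts in total, threshold 0.05). DOX in MLL-AF9-i139 was fitted on 6 libraries, and the other comparisons on 10 libraries in 4 groups. The standard error is the absolute log2 fold change divided by the square root of F. Clone numbers mark the same cell line with and without DOX: deviations from group means correlated at 0.381, 0.288 and 0.414 within clones 1, 2 and 3 and at -0.315 to -0.044 between clones (Pearson's r across 19223 genes), so the fit with the clone as a block is printed wherever it changed a call. Alternatives were DESeq2 1.42.0, RLE size factors, other filters, all 10 libraries, and each clone or culture time left out.

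Other pathway genes are named if their adjusted p was under 0.05 without or with the block (at most 15), or if they had the highest level per exon length in their list. The genes Ptger1, Ptger2, Ptger3, Ptger4, Ptgr2 and Ptgis are named outside this rule. Genes most like Hpgd are the 5 with the highest Pearson's r of log2 CPM, among genes with an average log2 CPM of at least 1. Markers are named after their values were seen. Exon lengths, overlaps and 3′ UTRs came from a later GENCODE release on GRCm38. The fits were tested on simulated data that had the same spread for every gene and no differences between clones. What the block does with clones that differ was therefore not tested. Total counts were 35133308 to 47089725 per library, and the floor of 3 counts covers counting error only.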

Additional observations from a re-analysis of the deposited data

Results flagged for a closer look

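Ptges and Ptgr1 were noted because every MLL-AF9-i139 clone moved one way with DOX and both MLL-AF9-ieGFP culture times the other way. Ptges was higher in clones 1, 2 and 3 (log2 difference 1.51, 1.98 and 0.57) and lower by 0.04 at both MLL-AF9-ieGFP times. The interaction was 1.52 (95% interval 0.40 to 2.64, adjusted p = 0.527, edgeR) without and 1.41 (adjusted p = 0.108, edgeR) with the clone as a block. Ptgr1 was lower in the clones (log2 difference -0.38, -0.46 and -0.06) and higher at the MLL-AF9-ieGFP times (0.11 and 0.02). Its interaction was -0.38 (95% interval -0.78 to 0.02, adjusted p = 0.565, edgeR) without and -0.37 (adjusted p = 0.254, edgeR) with the block. Neither difference passed the test across all genes, and the differences in MLL-AF9-ieGFP were small beside the intervals.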

How the results depend on the processing

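Whether Hpgd, Ptgs1, Ptges and Alox5ap passed the threshold depended on the setting. Hpgd changed by -1.26 to -1.0 when 1 clone was left out (adjusted p from 0.00906 to 0.742, edgeR), and by -1.28 to -0.99 when this was done with the clone as a replicate block. It passed the threshold with DESeq2 (-1.10), without a filter on low counts (-1.09), with the replicate block (-1.13) and with all 10 libraries (-1.11), and without clone 3 (-1.26). Of the 10 genes, 4 passed with DESeq2 (1556 of 12869 genes did), with the replicate block (2381 of 19223) and with all 10 libraries (1234 of 20269). Without a filter 3 passed (562 of 25840). Leaving out 1 clone gave 0 to 5, and 4 to 8 with the block, a setting chosen after seeing the data, with the most without clone 3. Without clone 3, 3981 of 18359 genes passed without and 7974 of 18359 with the block, so these counts rose with the calls over all genes.

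Over all genes, 12 passed for DOX in MLL-AF9-i139 (3959 at an unadjusted p under 0.05), 1556 with DESeq2, 562 without a filter, 6 with at least 10 counts in at least 3 libraries, 2381 with the replicate block, 1234 with all 10 libraries, 0 to 3981 with 1 clone left out, and 324, 580 and 7974 with the block and without clone 1, 2 or 3. In MLL-AF9-ieGFP 0 passed, against 1 with DESeq2 and 1 without a filter. For the interaction 1 gene passed, against 83 with DESeq2, 71 without a filter, 0 with the stricter filter, 36 with the replicate block and 0 to 2011 with a clone or culture time left out. Between the untreated lines 9 passed, against 44 with DESeq2, 37 without a filter and 0 to 30 with a clone or time left out. The cause of these moves was not tested.

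Values near 0 changed sign when a clone or culture time was left out, and ran over these ranges of log2 fold changes. For DOX in MLL-AF9-i139, Alox5 ran from -0.27 (without clone 2, also with the block) to 0.18. In MLL-AF9-ieGFP, Hpgd ran from -0.42 to 0.02 (without 72 h), Ptgs2 from -0.31 to 0.48, Ptges2 from -0.15 to 0.08 and Alox5ap from -0.13 to 0.06. In the interaction, Ptgs2 ran from -0.80 to 0.01 and Hpgds from -0.73 to 0.23. Between untreated lines, Ptgr1 ran from -0.13 to 0.05, Ptgs2 from -0.48 to 0.06 (0.01 without 72 h), Ptges2 from -0.19 to 0.01, Alox5 from -0.08 to 0.47, Alox5ap from -0.30 to 0.06 and Lta4h from -0.15 to 0.08 (0.02 without 48 h). None of these had passed the threshold. Where 1 library remained in a group, it was assumed to vary like the others. Alox5 and Ptgs2 rested on 34 to 124 counts per library, which limits what can be said of them.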

Other observations

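Ptgis, prostacyclin synthase, was chosen after its values were seen. It was at 9.46 CPM in clone 3 without DOX and at 13 CPM with DOX, whereas the other 8 libraries lay between 0.307 and 0.763 CPM, in clones 1 and 2 and in both culture times of MLL-AF9-ieGFP. Its log2 difference with DOX was 0.03, 0.75 and 0.46 in clones 1, 2 and 3, so clone 3 stood apart in level in both of its libraries.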
